A study of Mus musculus with 2 samples.

Results

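The miR-130 and miR-301 family was followed in small RNA from ischemic mouse hindlimb muscle, through the 4 listed miRNA precursors mmu-mir-130a, mmu-mir-130b, mmu-mir-301a and mmu-mir-301b among 1187 in all. They were taken by precursor name, and all 4 were listed in both libraries. The hypercholesterolemic library (HC) came from ApoE-/- mice, which lack the lipoprotein ligand apolipoprotein E and, per the series' design text, received a high-fat diet. The normocholesterolemic control library (NC) came from C57Bl/6 mice with the control genotype. In both, the femoral artery had been removed surgically and muscle was taken at day 1 after surgery. The labels give no diet for the controls, so whether diet differed as well as genotype is not known; if it did, they cannot be told apart. Also not given are age, the number of mice per library and the strain background of the ApoE-/- mice. Each group held 1 library, so the spread between animals could not be estimated, no test was possible, and every 95% interval below is an exact interval of counting error only. The question put to the libraries is whether the levels of these miRNAs in ischemic muscle go with high plasma cholesterol.

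A miRNA is cut from a hairpin precursor and guides the silencing complex to messenger RNAs that pair with its seed, the bases near its 5′ end. miRNAs with the same seed are treated as a family because they can recognise the same sites. miR-130a is known from endothelial cells, where it represses the antiangiogenic homeobox genes Meox2 (GAX) and Hoxa5. miR-130a and miR-130b repress Pparg, the nuclear receptor that drives adipocyte differentiation. miR-130b and miR-301b have also been tied to cholesterol handling through Abca1, the cellular cholesterol exporter. None of these messenger RNAs was measured here.

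The sequences below show what the members share and where they part. The mature 3p products of 3 members are given 5′ to 3′ with the seed, bases 2 to 8, in capitals; sequences are those of RefSeq on GRCm38.p6.
miR-130a-3p: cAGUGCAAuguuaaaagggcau
miR-130b-3p: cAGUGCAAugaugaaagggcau
miR-301a-3p: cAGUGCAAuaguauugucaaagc
The seed AGUGCAA was the same in all 3. Counted from 1 at the 5′ end of miR-130a-3p, the best ungapped placement on the miR-130b hairpin differed by 2 of 22 bases, U11A and A13G. The placement of miR-301a-3p on the miR-301b hairpin differed by 1 of 23 bases, A10G. Between a miR-130 3p sequence and a miR-301 hairpin, 9 to 11 bases differed. Sequence therefore separates miR-301a from miR-301b the least.

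Counts were listed per hairpin, so the hairpins are the units measured. Each is given with the 7 bases of the seed in capitals.
mmu-mir-130a: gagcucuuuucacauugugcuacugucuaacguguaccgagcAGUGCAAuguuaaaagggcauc
mmu-mir-130b: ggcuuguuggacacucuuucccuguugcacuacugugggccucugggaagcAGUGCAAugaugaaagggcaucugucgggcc
mmu-mir-301a: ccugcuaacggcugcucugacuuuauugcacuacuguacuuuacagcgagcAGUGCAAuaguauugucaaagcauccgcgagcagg
mmu-mir-301b: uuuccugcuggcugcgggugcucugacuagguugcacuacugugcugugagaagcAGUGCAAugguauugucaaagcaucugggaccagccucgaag
The seed occurred exactly 1 time in each hairpin. The annotated 5p products do not share that seed. Their bases 2 to 8 were CUCUUUU in miR-130a-5p, CUCUUUC in miR-130b-5p and CUCUGAC in both miR-301a-5p and miR-301b-5p. A hairpin count sums both arms, so the family level below is that of 4 hairpins and not of the 3p seed alone.

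The 4 hairpins lie at 3 loci. mmu-mir-130a is at chr2:84741115-84741178 on the minus strand of mm10, outside annotated genes, with 990 bases between it and the nearest one, Gm19426. mmu-mir-301a is at chr11:87113004-87113089 on the plus strand, in an intron of Ska2, a component of the spindle and kinetochore complex. mmu-mir-130b (chr16:17124061-17124142) and mmu-mir-301b (chr16:17124400-17124496) are both on the minus strand in an intron of 2610318N02Rik, with 257 bases between them. No other listed precursor lay within 10 kb of any member.

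The family was present at like levels in both libraries, and with the main library scaling no member differed by more than its counting error. The HC library held 31198050 counts over all precursors and the NC library 43848576, and the members together held 8993 counts in HC and 11730 in NC. Levels are given as CPM, the count divided by the library size and multiplied by 1e6, with library sizes scaled by the trimmed mean of M-values (TMM), a scaling that assumes most precursors do not differ. The summed family stood at 275.2 CPM in HC (269.5 to 280.9) and 280.2 CPM in NC (275.2 to 285.4). The fold of HC over NC for the sum was 0.982 (0.955 to 1.01). Of all precursor counts, the family made up 0.0288% in HC (0.0282 to 0.0294) and 0.0268% in NC (0.0263 to 0.0272). That share was higher in HC, the other way from the fold under TMM, and its intervals do not overlap. Reads may enter the total of all precursor counts more than once: mmu-mir-486a and mmu-mir-486b, at overlapping positions, each held 4626450 counts in HC and 7839973 in NC. The effect on these shares and on the library totals was not tested.

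miR-130a, the vascular member, was the most abundant. It had 5586 counts in HC and 7166 in NC. Its level was 170.9 CPM in HC (166.5 to 175.5) and 171.2 CPM in NC (167.3 to 175.2), and the intervals overlap over most of their width. The fold of HC over NC was 0.998 (0.964 to 1.03), a log2 fold of -0.0024. It ranked 113 by count among the listed precursors in HC and 111 in NC.

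miR-301a, the member hosted by Ska2, came next. It had 2911 counts and 89.1 CPM in HC (85.9 to 92.4), against 3898 counts and 93.1 CPM in NC (90.2 to 96.1). The value was lower in HC, and the intervals overlap. The fold was 0.956 (0.911 to 1.00), a log2 fold of -0.064 whose interval (-0.13 to 0.0053) just held 0. This was the member for which the counting interval came closest to excluding equality.

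miR-130b, which lies beside miR-301b, was far lower. It had 449 counts and 13.7 CPM in HC (12.5 to 15.1), against 586 counts and 14.0 CPM in NC (12.9 to 15.2). The levels are almost equal and the interval of the fold, 0.981 (0.866 to 1.11), is wider because fewer reads stand behind it. It ranked 201 in HC and 206 in NC.

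miR-301b was scarce. It had 47 counts and 1.44 CPM in HC (1.06 to 1.91), against 80 counts and 1.91 CPM in NC (1.52 to 2.38). Its fold was the farthest from 1 in the family, 0.752 (0.513 to 1.09), a log2 fold of -0.41 (-0.96 to 0.13). The interval holds equality as well as a 1.5-fold lower level, so these counts do not tell them apart. It was the only member below a mean of 10 CPM; the other 3 were above it.

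**Figure D1:**
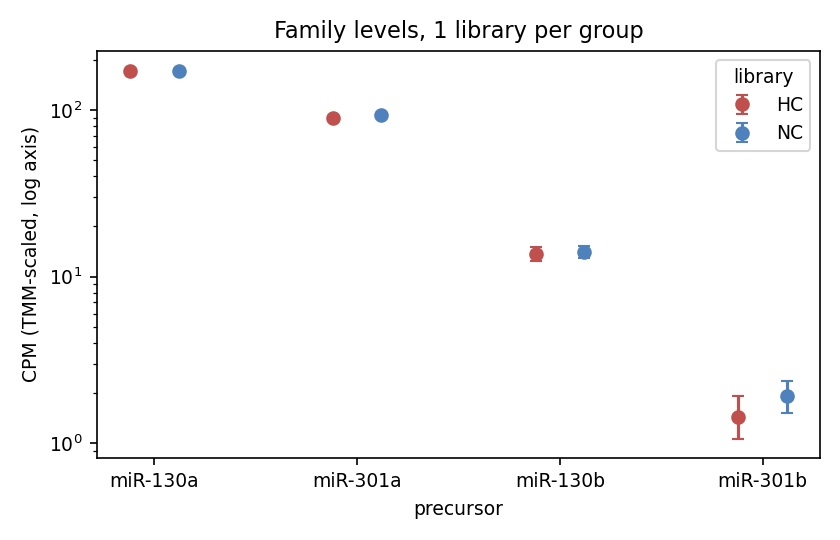
Level of each precursor in CPM on a log axis in the HC library (left point) and the NC library (right point), 1 library each; bars are exact 95% Poisson intervals of the counts. The points of each member lie side by side, from about 171 CPM for miR-130a down to 1.44 CPM in HC and 1.91 CPM in NC for miR-301b.

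The order of the members was the same in both libraries, miR-130a above miR-301a above miR-130b above miR-301b, and no intervals of neighbours in that order overlapped. Hairpins differ in length, from 64 bases for miR-130a to 97 for miR-301b. Per 100 bases of hairpin the levels were 267.1, 103.6, 16.8 and 1.48 CPM in HC and 267.5, 108.3, 17.1 and 1.97 CPM in NC, in that same order. A read of a mature miRNA does not grow in number with hairpin length, so the level per hairpin is given as well.

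The makeup of the family does not depend on the library scaling. miR-130a held 62.1% of the family in HC (61.1 to 63.1), against 61.1% in NC (60.2 to 62.0). miR-301a held 32.4% in HC (31.4 to 33.3) and 33.2% in NC (32.4 to 34.1). For these members the interval of each library overlaps that of the other. miR-130b held 4.993% in HC and 4.996% in NC, and miR-301b held 0.523% in HC (0.384 to 0.694) and 0.682% in NC (0.541 to 0.848). The ratio of miR-130a to miR-301a counts was 1.92 in HC (1.83 to 2.01) and 1.84 in NC (1.77 to 1.91).

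The neighbours miR-130b and miR-301b, in the same intron and on the same strand, were listed at unequal levels in both libraries. There were 9.55 miR-130b counts for each miR-301b count in HC (7.06 to 13.2) and 7.33 in NC (5.79 to 9.37). The ratio was thus on the same side of 1 in each library, and the intervals of HC and NC overlap. miR-301b held 1.61% as many counts as miR-301a in HC and 2.05% in NC, although a single base separates miR-301a-3p from the miR-301b hairpin. Most miR-301a counts were thus not also listed under miR-301b. By contrast, the counts of mmu-mir-19b-1 and mmu-mir-19b-2 differed by 0.456% in HC and 0.469% in NC. Whether the few miR-301b counts were also listed under miR-301a was not tested. How many of the few miR-301b counts were reads of miR-301a with an error was not tested, and the separate level of miR-301b is uncertain.

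The folds of the members were set beside those of all 222 precursors whose mean level reached 10 CPM. Of these, 2.25% were at least 2-fold higher or lower in HC with an interval that excluded equality, and 7.21% were at least 1.5-fold apart. No member was 1.5-fold apart with such an interval. At these depths an interval excluded equality at any size for 83.3% of the compared precursors. Under TMM scaling the intervals of the 3 members among them held it, as did that of miR-301b, which was not compared. Intervals narrow as counts rise, and that share was not matched to the counts of the members. The reading of the members also rests on the scaling. Plain library totals raise every log2 fold by 0.13, and 82% of precursors then had an interval that excluded equality; miR-130a lay at 0.13 (0.081 to 0.18) and miR-301a at 0.070 (0.0001 to 0.14), both above 0. With the denominators behind the authors' RPM column, which lower every log2 fold by 0.11, the share was 82% of the 233 precursors that then reached 10 CPM. There miR-130a lay at -0.11 (-0.17 to -0.064) and miR-301a at -0.18 (-0.25 to -0.11), both below 0. miR-130b and miR-301b held 0 in each of these. The members therefore have no firm direction, and the values within 1.5-fold stand under every scaling tried for the 3 members above 10 CPM. Counts listed as lying in no feature, outside the precursors, were 55.9% of these and the precursor counts together in HC and 44.1% in NC. Their part in these values was not tested.

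**Figure D2:**
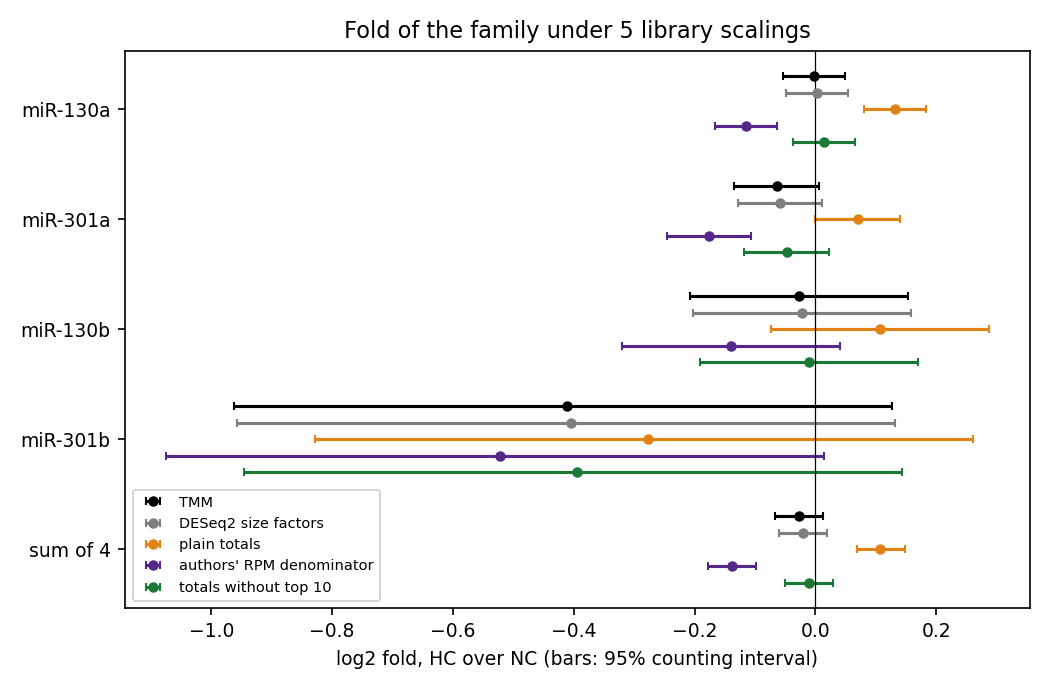
Log2 fold of HC over NC (x axis) for each member and for their sum (rows), under 5 library scalings (colours); bars are 95% counting intervals. With TMM and DESeq2 size factors every interval crosses 0, while plain totals put miR-130a at 0.13 and the authors' denominators put it at -0.11.

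**Figure D3:**
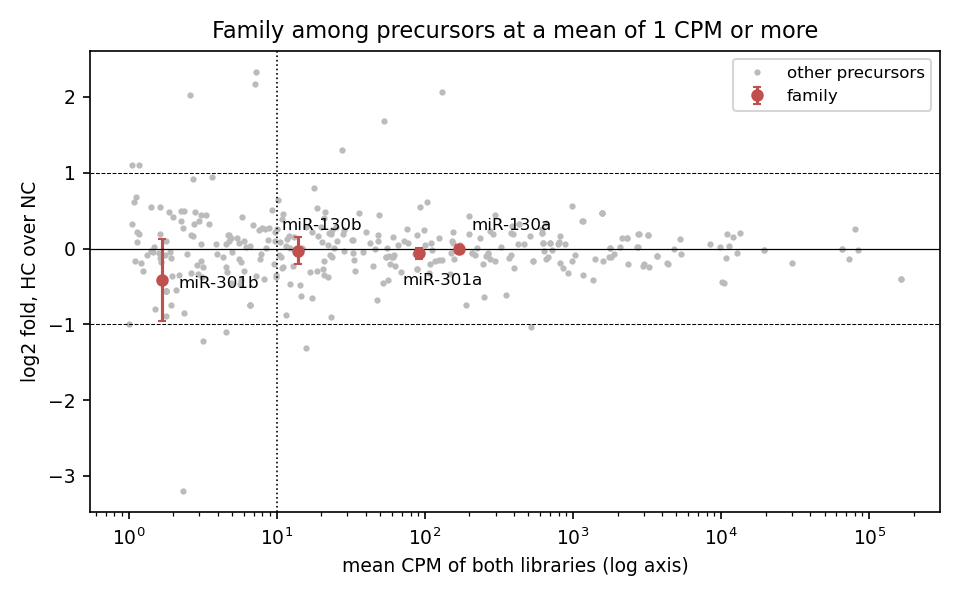
Log2 fold of HC over NC against mean CPM on a log axis for precursors with counts in both libraries and a mean of at least 1 CPM; the dotted line marks 10 CPM and the dashed lines mark 2-fold. The members above 10 CPM lie on or next to 0, and miR-301b, at a mean of 1.67 CPM, lies at -0.41 with a bar that crosses 0.

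The precursors whose fold lay closest to that of each member, among those within 2-fold of its level, were taken over the 2 libraries, so likeness here means a small difference in a single log2 fold. For miR-130a they were miR-195a (log2 fold 0.010), miR-221 (-0.026) and miR-5099 (0.026). For miR-301a they were miR-107 (-0.053), miR-484 (-0.076) and miR-300 (-0.089). For miR-130b they were miR-193a (0.0010), miR-450b (0.0030) and miR-653 (0.0092), and for miR-301b they were miR-34b (-0.38), miR-219a-1 (-0.36) and miR-467d (-0.35). With 2 libraries these matches describe level and fold only.

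The seed was carried by few other listed miRNAs. In the RefSeq table, 7 mature mouse miRNAs have AGUGCAA at bases 2 to 8: the 3 shown above and miR-130c, miR-721, miR-6341 and miR-6389. The precursors of these last 4 had 0 counts in HC and 0 in NC, which allows up to 0.0918 CPM in HC and 0.0717 CPM in NC (3 counts per library). The RefSeq table has no entry for miR-301b-3p, so a search of its mature sequences can miss a product with the seed. Among the 969 listed precursors matched to that table, no counts outside the 4 members came from a hairpin with an annotated product of this seed.

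Other miRNAs share a run of 6 bases with the seed at a shifted position. Examples of both shifts are shown with bases 2 to 8 in capitals.
miR-148a-3p: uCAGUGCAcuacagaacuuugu
miR-19b-3p: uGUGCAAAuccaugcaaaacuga
Of the 8 precursors with such a run, 7 were compared, and none was 1.5-fold apart. miR-148a, which is known to repress Abca1, had 4058 CPM in HC and 4637 CPM in NC, a log2 fold of -0.19. miR-148b stood at 0.24 and miR-152 at 0.068. miR-19a and the inseparable copies of miR-19b, members of the miR-17-92 cluster, stood at -0.24 and -0.26. miR-350 stood at 0.13 with an interval that held 0, and miR-291b had no counts. With TMM scaling 2 of the 7 intervals lay above 0 and 4 below, where 88 lay above and 97 below over all 222 compared precursors, so the share that excluded equality was near that of 83.3% over all. The median log2 fold was -0.19, against -0.0007 over all; with a single copy of miR-19b kept it was -0.062, and then 2 of 6 intervals lay above 0 and 3 below. The sign of miR-152 turned to -0.045 with the denominators of the authors' RPM column, and that of miR-148a did not turn under either scaling named above.

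miRNAs of vascular growth, the process in which miR-130a is best known, were within 1.5-fold between the libraries where they were compared, as were most compared precursors. Of 29 such precursors, 24 were compared; 0 were higher in HC by 1.5-fold or more and 0 were lower by as much, where 2.7% and 4.5% of all compared precursors were. Their median log2 fold was -0.0018, with 10 intervals above 0 and 10 below. Copies such as mmu-mir-16-1 and mmu-mir-16-2 (112368 and 111979 counts in HC), both above 0, can hold the same reads. These are thus numbers of precursors, not of separate miRNAs. The balance also changed with the scaling. Plain totals put 19 of the 24 values above 0 and 5 below, and the authors' denominators put 5 above and 19 below. Over all 222 compared precursors the same scalings put 159 above and 63 below, and 71 above and 151 below. Under TMM the values of the 24 compared precursors ran from -0.31 for miR-222 to 0.20 for miR-10a. Listed precursors below 10 CPM went beyond this range with intervals that excluded equality. They were mmu-mir-218-1 at -0.35 (-0.56 to -0.13), mmu-mir-218-2 at -0.38 (-0.60 to -0.16) and, on the other side, mmu-mir-18a at 0.27 (0.029 to 0.51). The most abundant were miR-10b, which promotes endothelial sprouting, at 83242 CPM in HC and 84291 CPM in NC, and miR-10a at 14333 CPM in HC and 12458 CPM in NC. The endothelial miR-126a, a marker of vascular lining cells, stood at 11407 CPM in HC and 11144 CPM in NC (log2 fold 0.034). In bulk muscle, fewer cells of a type and less RNA per cell cannot be told apart.

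The other miRNAs that act on the same metabolic targets were compared as well. miR-27a and miR-27b repress Pparg as miR-130 does. miR-27b had 12665 CPM in HC and 13143 CPM in NC (log2 fold -0.053), and miR-27a had 828.2 CPM in HC and 779.9 CPM in NC (0.087); both signs turn round between plain totals and the authors' denominators. Of 7 precursors tied to Abca1, 6 were compared, with a median log2 fold of 0.14, which was 0.27 with plain totals and 0.025 with the authors' denominators. Of these 6, 1 was at least 1.5-fold higher in HC and 0 as much lower, beside 2.7% and 4.5% of all compared precursors. That 1 was the erythroid miR-144, which represses Abca1, at 125.4 CPM in HC and 81.8 CPM in NC (log2 fold 0.62). Beside it, the erythrocyte marker miR-451a also was higher in HC, and the summed level of these 2 markers was 608.8 CPM in HC and 467.9 CPM in NC; the part of blood in the value of miR-144 was not tested. miR-33, the intronic repressor of Abca1, lay below 10 CPM and outside that count. It had 47 counts and 1.44 CPM in HC, against 101 counts and 2.41 CPM in NC, a log2 fold of -0.75 (-1.28 to -0.23), lower in HC with an interval that excluded equality.

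**Figure D4:**
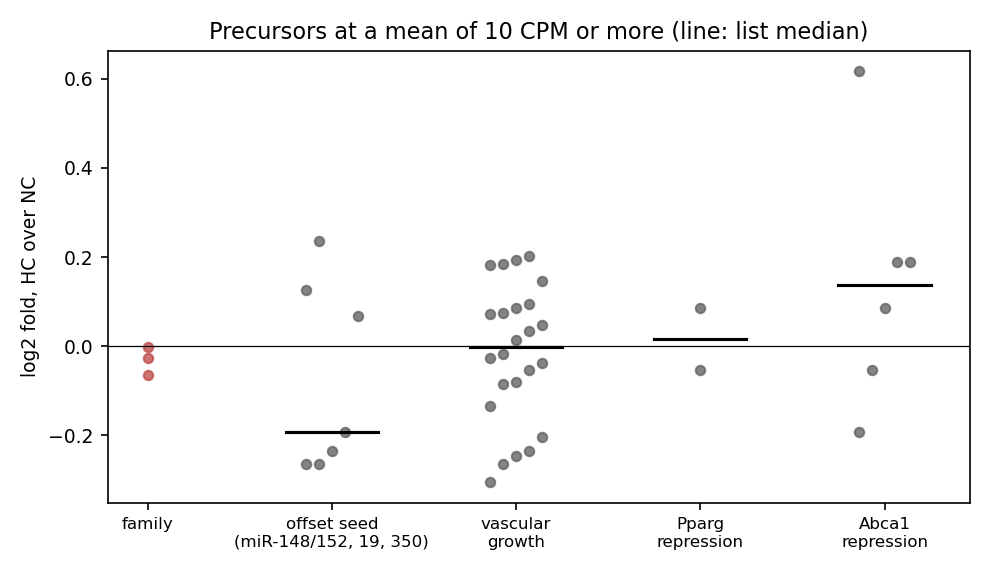
Log2 fold of HC over NC under TMM scaling for precursors with a mean level of 10 CPM or more, in the family (red, 3 members) and in 4 other groups (grey), with horizontal lines at the medians of those groups. The family values lie between -0.064 and -0.0024, and the highest point, at 0.62, is miR-144.

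The tissue label was checked on muscle markers. The 6 precursors of miR-1a, miR-133 and miR-206 all had counts, and their summed level, nearly all of it the inseparable copies of miR-133a, was 136143 CPM in HC and 135986 CPM in NC. That sum can hold the same reads more than once, as the copies had nearly equal counts. mmu-mir-133a-1 alone stood at 65127 CPM in HC and 65383 CPM in NC. Within the list miR-1a stood at a log2 fold of 0.47 for either copy, miR-133a at -0.0057 and -0.0059, miR-206 at -0.094 and miR-133b at -0.20. The 4 precursors listed as adipocyte markers, of interest beside Pparg, summed to 1083 CPM in HC and 972.1 CPM in NC. Whether they mark adipocytes in this muscle was not tested. Most of that sum was miR-196a, at log2 folds of 0.20 (mmu-mir-196a-1) and 0.16 (mmu-mir-196a-2). Whether both miR-196a precursors hold some of the same reads was not tested. miR-365-1 stood at 0.094 and miR-193b at -0.11, lower in HC, so the direction of the sum was not that of each marker. The liver miR-122 stood at 0.214 CPM in HC and 0.215 CPM in NC. Among leukocyte markers, miR-142a was close to equality (0.011), while miR-223 (0.44) and miR-150 (-0.75) lay on opposite sides of it. All 3 epithelial markers were lower in HC, and their sum was 79.4 CPM in HC and 101.5 CPM in NC. miR-205 had 13.5 CPM in HC and 21.3 CPM in NC (log2 fold -0.66, -0.82 to -0.49), and miR-200b had 11.5 CPM in HC and 17.8 CPM in NC (-0.62, -0.81 to -0.44). miR-203 stood at -0.20, with an interval that held 0 under plain totals. How much of the family's counts came from any of these cell types was not tested.

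The seed has exact matches in the annotated 3′ UTRs of the targets named above. The motif TTGCACT, the reverse complement of the seed, was searched on the transcript strand of the longest annotated 3′ UTR of each gene in GENCODE M21, and was found in 9.98% of 21010 genes. Each window of 29 bases is given 5′ to 3′ with the match in capitals.
Pparg, chr6:115490226-115490254, plus strand: ccttctattgaTTGCACTattattttgag
Meox2, chr12:37178636-37178664, plus strand: tttgctttggcTTGCACTgaaaattaaat
Meox2, chr12:37178792-37178820, plus strand: tttgcttttgcTTGCACTgaaaattaaac
Hoxa5, chr6:52202192-52202220, minus strand: aatgttgtgtgTTGCACTtgagttcttta
Abca1, chr4:53033873-53033901, minus strand: gaggtcttcctTTGCACTgtgtcaagtgt
Abca1, chr4:53030964-53030992, minus strand: tggatctatttTTGCACTggaatatctga
The Pparg UTR, 204 bases long, held 1 match, which is followed by an A as in the longest class of seed site. Among 3′ UTRs within 20% of its length, 1.16% held the motif. The corresponding shares were 8.94% for Meox2, 7.34% for Hoxa5 and 19.2% for Abca1. These genes were chosen as known targets, so the shares are background only and enrichment was not tested. A match describes the letters of the transcript and does not show that a member acts on it in this muscle.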

How the data were processed

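Per the labels' protocols, Trizol and mirVana extraction was followed by TruSeq small RNA library preparation. The deposited files give whole-number counts per miRNA precursor. HTSeq 0.5.4, TopHat2 2.0.10, CASAVA 1.8.2 and the build mm10 are named, without their roles, in the submitters' processing notes. Not given in the sources used here: how reads were trimmed, which miRNA annotation was used, and how reads with several alignments were counted. The 5 deposited summary lines stayed out of library sizes. Counts of the no-feature line made up 55.9% of these and the precursor counts together in HC and 44.1% in NC. The other summary lines did not enter this share. The deposited column headed RPM was treated as a signal: it is the count over 1 constant per library, sums to over 1e6 per library, and served only as an alternative scaling.

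Groups follow the phenotype labels. Library sizes were TMM-scaled with edgeR 4.0.16 in R 4.3.3, without a test; DESeq2 1.42.0 gave only alternative size factors. Each fold divides the scaled HC level by the scaled NC level without a pseudocount and has an exact conditional binomial (Clopper-Pearson) 95% interval; levels have exact Poisson intervals. No molecular identifiers are described, so reads need not be separate molecules, and the intervals and the limit of 3 counts cover counting error only. Other precursors were compared at a mean of at least 10 CPM. Simulated Poisson counts with known folds were used to check the calculation. They follow the counting model that the intervals assume. They therefore cannot test spread between animals, the scaling or reads with several alignments. Hairpin and mature sequences are from RefSeq (GRCm38.p6), where 969 of 1187 precursors matched by coordinates; genes and 3′ UTRs are from GENCODE M21 (GRCm38, the assembly of mm10).

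The members, lists and tests were chosen with earlier results of these data known. Named miRNAs were the members and the 3 precursors nearest in fold to each within 2-fold of its level. Also named were precursors with the same or a shifted seed or within 10 kb, and list members past 1.5-fold or otherwise the most abundant. Some were named after their values were seen: the highest and lowest compared members of the vascular list, miR-16, miR-18a, miR-218, miR-33 and the marker miRNAs under 1.5-fold.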

Additional observations from a re-analysis of the deposited data

Results flagged for a closer look

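Counts outside all precursors, those of the no-feature line, were 55.9% of these and the precursor counts together in the HC library, against 44.1% in the NC library. They lie outside the measurement described above and are given because HC stood above the control; what these counts hold was not examined, and their part in the family's values was not tested.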

How the results depend on the processing

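With 1 library per group no replicate could be left out, and the values describe these libraries only. No paired analysis was possible because each group holds 1 library and no test was made. TMM over the compared precursors alone, DESeq2 size factors and totals without the 10 most abundant precursors left the folds of the 4 members and of their sum within their counting intervals. With plain totals the log2 fold was 0.13 for miR-130a, 0.070 for miR-301a and 0.11 (0.068 to 0.15) for the sum. With the authors' denominators it was -0.11, -0.18 and, for the sum, -0.14 (-0.18 to -0.099). Without miR-130a the sum stood at -0.065 (-0.13 to -0.0005). Per base of hairpin, family shares in HC and NC were 68.7% and 67.8% for miR-130a, 26.6% and 27.4% for miR-301a, 4.31% and 4.32% for miR-130b, and 0.381% and 0.499% for miR-301b. The number of precursors at least 2-fold apart, 5 at a mean of at least 10 CPM, was 13 at 1 CPM, 3 at 50 CPM, 33 with no filter and 10 when the 10 most abundant precursors were left out of the totals, which also lets scarcer precursors reach 10 CPM. The number at least 1.5-fold apart, 16, was 35, 7, 57 and 26 in those settings. Over the 222 precursors compared under TMM, an alternative chosen after seeing the data, those totals gave 5 and 16. Depth limits miR-301b most.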
